A study of Rattus norvegicus with 9 samples.

Results

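ETS transcription factors share a winged DNA-binding domain, the ETS domain, that reads sites with a GGAA core, and most family members lie downstream of growth factor signaling. The kinase ERK, the last step of the Ras-Raf-MEK-ERK cascade, phosphorylates several of them, turning activators such as ETS1, ETS2 and ELK1 on and driving the repressor ERF out of the nucleus. In vascular smooth muscle the ternary complex factors of the family bind beside serum response factor (SRF), where they compete with myocardin, the coactivator of contractile genes. The 10 genes examined here were *Ets1*, *Ets2*, *Etv1*, *Etv4*, *Etv5*, *Elk1*, *Elk3*, *Elk4*, *Elf1* and *Erf*, out of 14324 genes with a symbol of their own on the array.

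The genes were chosen by symbol, with earlier results of these data known, so their counts beside all genes only describe them. The only measured value in the rule was the mean signal over all 9 arrays, which picks between probe sets of 1 gene. That mean decided nothing, since each of the 10 genes had 1 probe set with a single symbol. RNA came from quiescent rat aortic smooth muscle cells (RASMC), a purchased primary culture of low passage that was held in low serum before treatment. For 6 hr the cells were kept in K+-free DMEM (K_Free in the labels), in DMEM with 3 mM ouabain (Ouabain) or in control DMEM (Control). Ouabain is a cardiac steroid that blocks the Na+,K+-ATPase, the pump that exports Na+ and imports K+, and medium without K+ withholds the ion that the pump imports. All 3 conditions shared the low-serum step and a wash in K+-free DMEM. There were 3 arrays per condition, from 3 independent experiments, and their number limits the precision.

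Values are deposited log2 signals, so a difference of 1 is a doubling, and the level of 1 gene is not comparable with that of another. Array medians lay between 6.76 and 6.80. A gene was called when its adjusted p was under 0.05 and its change exceeded 1.2-fold (limma over all 27342 probe sets, Benjamini-Hochberg). As the arrays measure a culture in bulk, fewer cells of a type and less RNA per cell cannot be told apart. Smooth muscle marker genes, 7 of 8 of which were measured, averaged 9.87 to 9.91 on the K+-free arrays, 9.75 to 9.87 on the ouabain arrays and 10.20 to 10.26 on the control arrays. Of the 7, *Lmod1*, *Myh11* and *Cnn1* were called lower in both treatments and *Smtn* with ouabain, while *Tagln*, *Myl9* and *Des* were not called. *Lmod1* had the largest change, -1.48 in K+-free medium and -1.61 with ouabain, and the *Cnn1* call with ouabain was lost without ouabain array 3 (-0.18). *Acta2* was not analysed here. The 4 endothelial markers measured averaged 6.16 to 6.20 on the K+-free, 6.12 to 6.16 on the ouabain and 5.99 to 6.02 on the control arrays, and *Cdh5* alone of them was called, as higher, in each treatment. Its call was lost on *B2m* centring in K+-free medium (0.13) and with ouabain (0.25), and in K+-free medium also on reference gene centring (0.21) and repeated quantile normalization (0.20). *B2m* itself was higher by 0.16 in K+-free medium (adjusted p = 0.0129) and 0.15 with ouabain (adjusted p = 0.0163), under the fold limit. Here and below, centring on it therefore lowers every change from control by that amount. The 7 macrophage markers averaged 6.35 to 6.41 on the K+-free, 6.51 to 6.56 on the ouabain and 6.01 to 6.07 on the control arrays. Of these, *Cd68*, *Cd14* and *Csf1r* were higher in both treatments, while *Ptprc*, the defining leukocyte gene, was not called in any comparison. The *Csf1r* call with ouabain was lost on *B2m* centring (0.18) and repeated quantile normalization (0.23). *Cdh5* (5.59 to 6.03) and *Csf1r* (5.65 to 6.34) lay under the array medians on every array, and their detection was not assessed. The *Cd14* call in K+-free medium was lost on *B2m* centring (0.27) and under the unmoderated tests. The part of these markers in the results was not tested.

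RefSeq (GRCr8) gave a promoter window for 8 of the 10 genes, and the stretches upstream of 4 of them are shown as examples of 3 of the patterns of response. These are *Ets2* and *Elf1* (higher in both treatments), *Etv5* (lower in both) and *Erf* (higher with ouabain). Each is written 5′ to 3′ on the gene's strand, and capitals mark matches, on either strand, to the ETS site CGGAAG, the core TGACG of the cAMP response element, the CCAAT box, the AP-1 site TGANTCA or the GC box GGGCGG. *Ets2* lies on chr11:48491057-48507843 and the stretch is chr11:48490807-48491056 of the plus strand. *Elf1* lies on chr15:61354026-61395762 with the stretch chr15:61353776-61354025, plus strand. *Etv5* lies on chr11:92113171-92170758 with the stretch chr11:92113013-92113170, plus strand. *Erf* lies on chr1:89957760-89966213 with the stretch chr1:89966214-89966463, minus strand.
Ets2: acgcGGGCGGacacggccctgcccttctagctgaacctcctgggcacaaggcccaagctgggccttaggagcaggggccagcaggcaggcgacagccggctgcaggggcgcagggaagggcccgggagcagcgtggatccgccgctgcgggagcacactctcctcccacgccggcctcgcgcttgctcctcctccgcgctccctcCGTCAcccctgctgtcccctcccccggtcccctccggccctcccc
Elf1: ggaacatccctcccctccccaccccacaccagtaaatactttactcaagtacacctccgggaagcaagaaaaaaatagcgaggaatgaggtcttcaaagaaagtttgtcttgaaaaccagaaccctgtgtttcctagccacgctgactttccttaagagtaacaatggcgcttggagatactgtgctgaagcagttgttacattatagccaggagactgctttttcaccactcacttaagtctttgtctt
Etv5: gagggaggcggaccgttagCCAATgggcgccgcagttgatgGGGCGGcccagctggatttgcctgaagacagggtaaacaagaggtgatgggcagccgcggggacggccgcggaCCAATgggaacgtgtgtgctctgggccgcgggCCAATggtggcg
Erf: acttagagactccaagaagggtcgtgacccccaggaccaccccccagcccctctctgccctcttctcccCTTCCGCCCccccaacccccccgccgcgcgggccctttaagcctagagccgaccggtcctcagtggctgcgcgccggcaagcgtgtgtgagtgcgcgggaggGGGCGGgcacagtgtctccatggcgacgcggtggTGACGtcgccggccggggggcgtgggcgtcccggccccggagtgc

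Counted back from the annotated start of the gene on its own strand, the *Ets2* stretch held 1 cAMP response element core, at -45 to -41, and 1 GC box. The *Erf* stretch held its core at the same distance, -45 to -41, and an ETS site at -181 to -176 that shares bases with a GC box. Of the 4 stretches, *Erf* alone held an ETS site. *Etv5* held 3 CCAAT boxes and no core, and *Elf1* held none of the motifs. GC content was 74.4% for *Ets2*, 73.2% for *Erf*, 67.1% for *Etv5* and 44.8% for *Elf1*.

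The motifs were then counted over the 250 bases before the start that each window uses, which can differ from the annotated start of the gene. For *Elk1*, *Elk3* and *Etv1* these bases lay within the annotated span of the gene, and for *Elk4* and *Etv5* at least in part. An ETS site stood in a window of 2 of the 8 genes (*Elk4* and *Erf*), and in 13.9% of all 33469 rat windows. The cAMP response element core stood in 3 of the 8 genes (*Ets2*, *Elk4* and *Erf*), against 18.2% of all windows. CCAAT was found in 3 (*Elk1*, *Elk4* and *Etv5*), against 34.0%, and the GC box in 6, against 30.5%. No gene had the AP-1 site, found in 6.34% of windows. The CArG box, at which SRF binds, was found in 1 (*Etv1*), against 1.5% of windows. *Elk4* has 3 windows, which gives it more chances of a match than a gene with 1. These matches describe letters and not bound sites.

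The 10 ETS genes moved in both directions in each treatment. In K+-free medium 6 of the 10 were called against control, 3 higher (*Ets1*, *Ets2* and *Elf1*) and 3 lower (*Etv1*, *Etv4* and *Etv5*). Of all genes, 41.7% were called in this comparison, 17.8% higher and 24.0% lower, and of all probe sets 33.9%. With ouabain 7 of the 10 were called, 5 higher (*Ets1*, *Ets2*, *Elk1*, *Elf1* and *Erf*) and 2 lower (*Etv4* and *Etv5*). The shares of all genes were 40.2% called, 17.5% higher and 22.7% lower, and 32.5% of all probe sets were called. Since the treatments share the 3 control arrays, their values are set side by side below. The median change in K+-free medium was 0.17 for the 10 genes and 0.05 for all genes, and with ouabain 0.29 and 0.06. The median size of change was 0.58 in K+-free medium, beside 0.21 for all genes, and 0.40 with ouabain, beside 0.20.

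**Figure D1:**
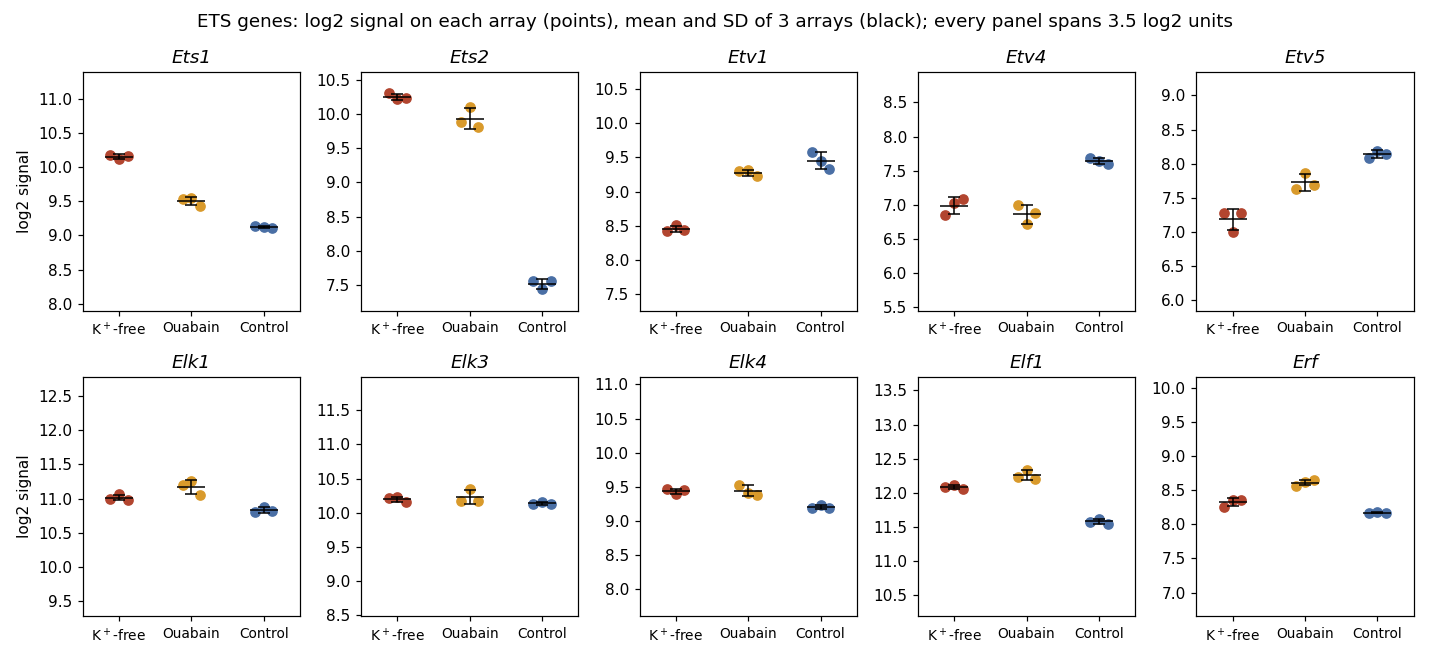
Log2 signal of each ETS gene (y axis, 3.5 log2 units in every panel) on the 3 arrays of K+-free medium, ouabain and control (x axis). Points are arrays and black marks the mean with its SD. *Ets2* showed the widest gap, with treated arrays at 9.81 or more and control arrays at 7.56 or less.

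The ETS1 and ETS2 proteins are close relatives with a pointed domain that docks ERK, and both activate transcription once phosphorylated. *Ets2* had the largest change of the 10 genes. Its log2 signal was 10.31, 10.22 and 10.23 in K+-free medium, 9.88, 10.10 and 9.81 with ouabain and 7.55, 7.43 and 7.56 in control. Every treated array lay above every control array by more than 2 log2 units, and the K+-free arrays lay above the ouabain arrays. Against control this was 6.68-fold in K+-free medium (log2 change 2.74 ± 0.08 SE, adjusted p = 6.77e-10) and 5.35-fold with ouabain (2.42 ± 0.08, adjusted p = 2.78e-09). K+-free medium exceeded ouabain by 0.32 (95% interval 0.15 to 0.49, adjusted p = 0.0101). That last call was lost without the third ouabain array, when the change was 0.26.

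*Ets1* (chr8:39303936-39426022, GRCr8 here and for the genes below) moved in the same direction with a clearer order of conditions. It read 10.18, 10.11 and 10.16 in K+-free medium, 9.53, 9.55 and 9.43 with ouabain and 9.13, 9.12 and 9.11 in control, so that no 2 conditions overlapped. The increase was 2.04-fold in K+-free medium (log2 change 1.03 ± 0.05 SE, adjusted p = 3.22e-08). With ouabain it was 1.30-fold (log2 change 0.38 ± 0.05 SE, adjusted p = 8.85e-05), a call that was lost when the arrays were centred on *B2m* (0.23). The treatments themselves differed by 0.65 (95% interval 0.53 to 0.76, adjusted p = 6.18e-06).

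*Etv1*, *Etv4* and *Etv5* form the PEA3 group of activators. Transcription of *Etv4* and *Etv5* is a widely used readout of FGF and ERK signaling in embryos. *Etv5* read 7.27, 7.00 and 7.28 in K+-free medium, 7.63, 7.87 and 7.69 with ouabain and 8.08, 8.19 and 8.15 in control. The conditions did not overlap, and the K+-free arrays were the lowest. *Etv5* fell 1.94-fold in K+-free medium (log2 change -0.96 ± 0.09 SE, adjusted p = 3.26e-06) and 1.33-fold with ouabain (-0.41 ± 0.09, adjusted p = 0.00235). The ouabain call was lost under repeated quantile normalization, at -0.21 (adjusted p = 0.0863).

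*Etv4* (chr10:87206977-87222202) read 6.84, 7.03 and 7.08 in K+-free medium, 7.00, 6.72 and 6.88 with ouabain and 7.68, 7.65 and 7.60 in control. Both treatments lay below control and overlapped each other. The change was -0.66 ± 0.08 (SE) in K+-free medium (1.58-fold lower, adjusted p = 4.33e-05) and -0.78 ± 0.08 with ouabain (1.71-fold lower, adjusted p = 1.21e-05). The difference between the treatments was 0.12, with a 95% interval of -0.06 to 0.30.

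*Etv1* (chr6:61316836-61408985) behaved unlike *Etv4*. It read 8.43, 8.50 and 8.43 in K+-free medium, 9.29, 9.31 and 9.22 with ouabain and 9.58, 9.45 and 9.33 in control. K+-free arrays stood well apart, whereas the highest ouabain array was within 0.1 of the lowest control array. *Etv1* fell 2.0-fold in K+-free medium (log2 change -1.0 ± 0.07 SE, adjusted p = 2.85e-07). With ouabain the change was -0.18 ± 0.07 (adjusted p = 0.0487), which is 1.13-fold and under the fold limit, and it was called only when arrays were centred on *B2m* (-0.33) or without a fold limit. K+-free medium was below ouabain by -0.82 (95% interval -0.97 to -0.68, adjusted p = 7.29e-06), the largest difference between the treatments among the 10 genes.

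**Figure D2:**
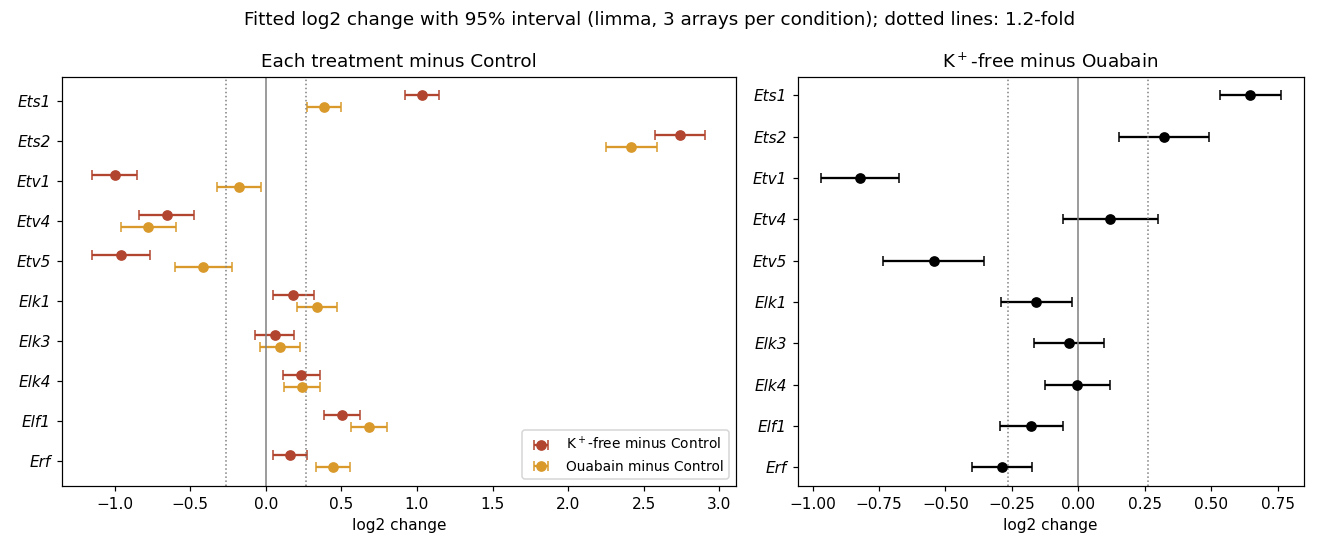
Fitted log2 change (x axis) of each ETS gene (y axis) with its 95% interval, for K+-free medium and ouabain against control on the left and for K+-free medium against ouabain on the right. Dotted lines mark 1.2-fold. *Etv1*, at -0.82, and *Ets1*, at 0.65, were farthest apart between the treatments.

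The ternary complex factors ELK1, ELK3 and ELK4 bind DNA together with SRF at the promoters of early response genes, and ELK3 can also act as a repressor. Their transcripts moved little. *Elk1* (chrX:3692367-3709252) read 11.00, 11.06 and 10.98 in K+-free medium, 11.20, 11.26 and 11.06 with ouabain and 10.80, 10.87 and 10.82 in control. Treated arrays were above control in each case. The change was 0.18 ± 0.06 (SE) in K+-free medium (1.13-fold, under the fold limit, adjusted p = 0.0293) and 0.34 ± 0.06 with ouabain (1.27-fold, adjusted p = 0.00078), a call lost on *B2m* centring (0.19). The treatments differed by -0.16 (95% interval -0.29 to -0.02, adjusted p = 0.0958).

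*Elk4* (chr13:46004145-46027206) read 9.46, 9.40 and 9.45 in K+-free medium, 9.53, 9.42 and 9.38 with ouabain and 9.19, 9.23 and 9.18 in control. Both treatments lay above control and overlapped each other, with a difference of -0.0038 (95% interval -0.13 to 0.12). Against control the changes were 0.23 in K+-free medium (adjusted p = 0.0048) and 0.24 with ouabain (adjusted p = 0.00452). Both were 1.18-fold, just under the limit, and both were called after repeated quantile normalization (0.36 in K+-free medium and 0.38 with ouabain). The ouabain change was also called without the third ouabain array, at 0.27.

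*Elk3* (chr7:29655676-29718163) was the gene with the smallest changes from control. It read 10.21, 10.23 and 10.16 in K+-free medium, 10.17, 10.35 and 10.18 with ouabain and 10.12, 10.16 and 10.13 in control. K+-free and control arrays overlapped. The change was 0.06 in K+-free medium (95% interval -0.07 to 0.19, adjusted p = 0.444) and 0.09 with ouabain (95% interval -0.04 to 0.22, adjusted p = 0.222), and its sign turned when the arrays were centred on *B2m* (-0.10 in K+-free medium and -0.06 with ouabain).

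ELF1 belongs to a separate branch of the family, best known from blood and endothelial genes, that is not a ternary complex factor. *Elf1* read 12.08, 12.12 and 12.05 in K+-free medium, 12.23, 12.34 and 12.21 with ouabain and 11.58, 11.61 and 11.55 in control. All treated arrays lay above all control arrays, and ouabain was the higher treatment. The increase was 1.42-fold in K+-free medium (log2 change 0.50 ± 0.05 SE, adjusted p = 1.22e-05) and 1.60-fold with ouabain (0.68 ± 0.05, adjusted p = 1.18e-06). K+-free medium lay below ouabain by -0.18 (95% interval -0.29 to -0.06, adjusted p = 0.0356), within the fold limit.

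ERF represses ETS target genes while it stays in the nucleus. *Erf* read 8.25, 8.36 and 8.36 in K+-free medium, 8.57, 8.62 and 8.65 with ouabain and 8.16, 8.18 and 8.16 in control. The conditions did not overlap, with ouabain highest. The change was 0.16 ± 0.05 (SE) in K+-free medium (1.12-fold, under the fold limit, adjusted p = 0.0266) and 0.45 ± 0.05 with ouabain (1.36-fold, adjusted p = 2.68e-05). The K+-free change was not called on the deposited scale, was called after repeated quantile normalization (0.35) and was -0.00046 on *B2m* centring. K+-free medium was below ouabain by -0.29 (95% interval -0.40 to -0.17, adjusted p = 0.00179), and without the first K+-free array this was -0.25 and no longer called.

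Between the treatments 5 of the 10 genes were called, *Ets1* and *Ets2* as higher in K+-free medium and *Etv1*, *Etv5* and *Erf* as lower. Over all genes 21.6% were called in this comparison, 10.9% higher and 10.7% lower, and of all probe sets 16.4%. The arrays of K+-free medium and ouabain did not overlap for 6 of the 10 genes, beside 40.0% of all genes. Against control, the K+-free arrays did not overlap for 9 (65.6% of all genes) and the ouabain arrays for all 10 (63.1%). By condition, the mean was highest in K+-free medium for *Ets1* and *Ets2*, in control for the 3 PEA3 genes, and with ouabain for *Elk1*, *Elk3*, *Elk4*, *Elf1* and *Erf*. For *Elk1*, *Elk3* and *Elk4* the ouabain and K+-free arrays overlapped, so their order within the treated conditions was not resolved.

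**Figure D3:**
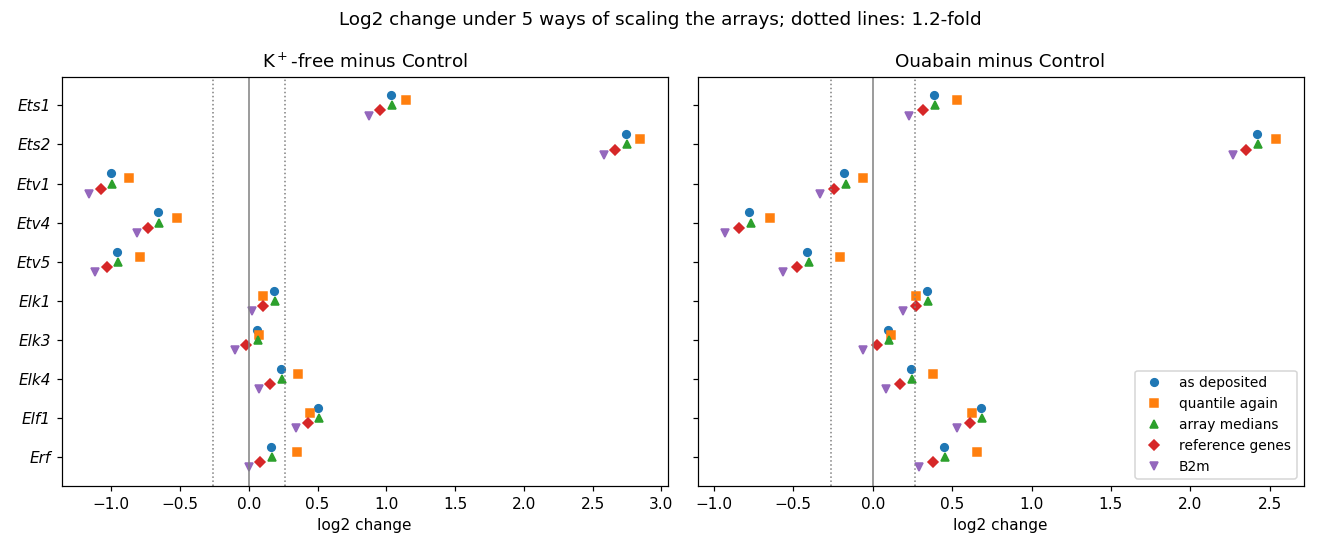
Log2 change (x axis) of each ETS gene (y axis) under 5 ways of scaling the arrays, for K+-free medium on the left and ouabain on the right, each against control. Dotted lines mark 1.2-fold. *Ets2*, *Etv4* and *Elf1* kept their side of the limit in both panels, whereas *Elk3* changed sign on *B2m* centring in both panels and on reference genes in K+-free medium (-0.02), and *Erf* in K+-free medium reached -0.00046 on *B2m*.

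Of the 17 other ETS family genes on the list, 15 were measured. K+-free medium raised 7 and lowered 2, and ouabain raised 2 and lowered 1, while on *B2m* centring K+-free medium raised 3 and lowered 2 and ouabain raised 0 and lowered 3. Of all genes, 41.7% were called in K+-free medium and 40.2% with ouabain. *Elf3*, an epithelial ETS gene, read 7.10, 7.05 and 7.26 in K+-free medium, 5.33, 5.15 and 5.39 with ouabain and 5.20, 5.21 and 5.12 in control. Only the K+-free arrays stood above the array medians. *Elf3* rose by 1.96 (3.90-fold, adjusted p = 5.29e-09) in K+-free medium, and the ouabain change was 0.11 (adjusted p = 0.239). The treatments differed by 1.85 (adjusted p = 4.09e-08).

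*Spib*, a lymphoid ETS gene, rose by 0.69 in K+-free medium (adjusted p = 0.000485), while every array lay under the array medians. *Etv6*, a repressor, rose by 0.44 in K+-free medium (adjusted p = 9.45e-05) and changed by 0.17 with ouabain, under the fold limit. *Erg*, an endothelial ETS gene, was lower in both treatments, with changes of -0.49 in K+-free medium (adjusted p = 0.000403) and -0.62 with ouabain (adjusted p = 7.08e-05). The median of the 15 genes was 0.24 in K+-free medium and 0.17 with ouabain.

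Genes of the cascade that feeds ETS factors changed in both directions. Of 14 Ras-ERK genes 10 were measured. K+-free medium raised 2 and lowered 5 (1 and 6 on *B2m* centring), and ouabain raised 1 and lowered 4. Of all genes, 41.7% were called in K+-free medium (24.0% lower) and 40.2% with ouabain (22.7% lower). The ouabain count was near the share of all genes. *Braf*, a Raf kinase, read 10.65, 10.53 and 10.66 in K+-free medium, 10.02, 10.00 and 10.15 with ouabain and 9.56, 9.47 and 9.50 in control, and rose by 1.10 in K+-free medium and 0.55 with ouabain. *Map2k1*, which encodes MEK1, read 10.29, 10.37 and 10.16 in K+-free medium, 10.89, 10.87 and 10.92 with ouabain and 11.34, 11.36 and 11.30 in control. Its change was -1.06 in K+-free medium (adjusted p = 7.54e-08) and -0.45 with ouabain (adjusted p = 8.84e-05). *Araf* changed by -0.80 in K+-free medium and -0.65 with ouabain, and the GTPase gene *Nras* by -0.78 in K+-free medium and -0.69 with ouabain, all of them called.

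Of 13 partners and regulators of ETS proteins 11 were measured. K+-free medium raised 7 and lowered 2, and ouabain raised 8 and lowered 3, which on *B2m* centring left 8 called in K+-free medium and 10 with ouabain. The share of all genes called was 41.7% in K+-free medium and 40.2% with ouabain. ID proteins block the DNA binding of ternary complex factors. *Id1* read 8.40, 8.47 and 8.29 in K+-free medium, 8.16, 8.24 and 8.05 with ouabain and 6.99, 7.05 and 7.08 in control, a rise of 1.34 in K+-free medium and 1.11 with ouabain. *Id3*, named after its values were seen, changed by 0.21 in K+-free medium (adjusted p = 0.114) and was lower with ouabain, at -0.40 (adjusted p = 0.00738). *Id2* rose by 0.89 in K+-free medium and 1.14 with ouabain, and *Runx2*, a DNA-binding partner of ETS1, by 1.28 in K+-free medium and 1.07 with ouabain. DET1 works in a ubiquitin ligase with COP1 that degrades ETV1 and ETS1 relatives in human cells. *Det1* read 8.71, 8.68 and 8.73 in K+-free medium, 8.23, 8.33 and 8.12 with ouabain and 9.56, 9.68 and 9.46 in control. Its change was -0.86 in K+-free medium (adjusted p = 1.48e-06) and -1.34 with ouabain (adjusted p = 5.86e-08).

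All 10 early response genes at which ternary complex factors and SRF act were called higher in each treatment, beside 17.8% of all genes in K+-free medium and 17.5% with ouabain. On *B2m* centring 9 were called in K+-free medium and 8 with ouabain. Their median was 2.20 in K+-free medium and 0.77 with ouabain. *Egr1* read 12.67, 12.76 and 12.63 in K+-free medium, 10.86, 11.04 and 10.78 with ouabain and 10.33, 10.33 and 10.31 in control. The treatments differed by 1.79 (adjusted p = 2.7e-08). Of the 10 genes 7 were called higher in K+-free medium than with ouabain, beside 10.9% of all genes. *Fos* rose by 2.98 in K+-free medium and 1.98 with ouabain, *Egr2* by 2.54 in K+-free medium and 0.71 with ouabain, and *Ier3* by 2.43 in K+-free medium and 1.29 with ouabain. The study listed *Fos*, *Nr4a1*, *Egr1*, *Junb* and *Ier2* from these same arrays, so the list is not independent evidence of its direction. *Srf* was lower in K+-free medium, with a change of -0.37 (adjusted p = 0.000665), and changed by -0.25 with ouabain, within the fold limit but past it on reference gene and *B2m* centring. *Myocd* changed by -0.18 in K+-free medium, within the limit, and by -0.26 with ouabain (adjusted p = 0.00159), a call that sat on the limit and was lost on centring by array medians (-0.25) and without control array 1 (-0.25), control array 2 (-0.26) or ouabain array 3 (-0.23).

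ERK induces genes that restrain it. Of 10 such genes, each treatment raised 8 and lowered 0, beside 17.8% of all genes raised in K+-free medium and 17.5% with ouabain, and on *B2m* centring K+-free medium raised 8 and ouabain raised 7 and lowered 1. DUSP6 is a phosphatase that removes phosphate from ERK. *Dusp6* read 10.75, 10.76 and 10.67 in K+-free medium, 10.20, 10.25 and 10.06 with ouabain and 8.90, 8.91 and 8.86 in control. It rose by 1.83 (3.56-fold, adjusted p = 1.86e-09) in K+-free medium and by 1.28 (2.42-fold, adjusted p = 2.73e-08) with ouabain. Sprouty proteins damp receptor signaling upstream of ERK. *Spry4* rose by 1.23 in K+-free medium and 0.44 with ouabain, *Spry2* by 1.01 in K+-free medium and 1.17 with ouabain, and *Spry1* by 1.04 in K+-free medium and 0.27 with ouabain. The ouabain call of *Spry1* was lost on reference gene (0.21) and *B2m* centring (0.12), and without control array 1 (0.26), ouabain array 1 (0.25) or ouabain array 3 (0.26).

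**Figure D4:**
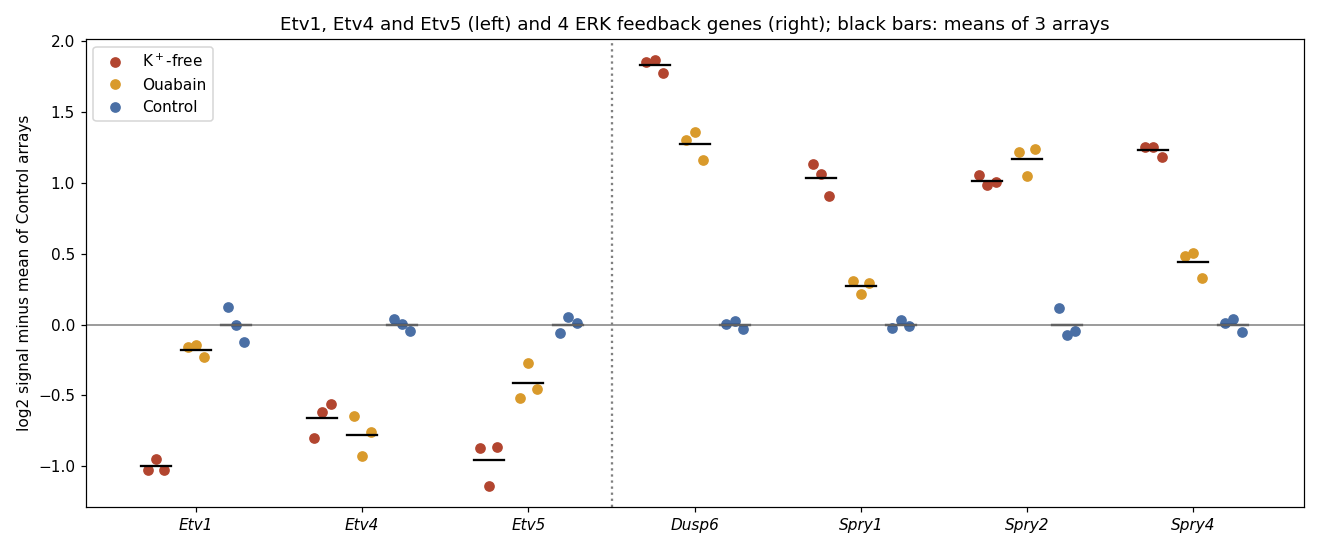
Log2 signal minus the mean of the control arrays (y axis) for *Etv1*, *Etv4* and *Etv5* and for the ERK feedback genes *Dusp6*, *Spry1*, *Spry2* and *Spry4* (x axis). Points are arrays, and black bars are means of 3. In K+-free medium the PEA3 genes changed by -1.0 (*Etv1*), -0.66 (*Etv4*) and -0.96 (*Etv5*), and *Dusp6* by 1.83. The ouabain changes of *Etv1* (-0.18) and, on *B2m* centring, *Spry1* (0.12) were not called.

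Of 10 protease and matrix genes linked to ETS factors 7 were measured, of which 2 were called in K+-free medium and 1 with ouabain, beside 41.7% of all genes in K+-free medium and 40.2% with ouabain. *Plaur*, the urokinase receptor gene, was higher in both treatments, by 1.0 in K+-free medium (adjusted p = 1.71e-06) and 0.76 with ouabain (adjusted p = 1.8e-05). *Plau*, the urokinase gene, rose by 0.38 in K+-free medium (adjusted p = 0.000349), a call lost on *B2m* centring (0.22), and was not called with ouabain. The matrix metalloproteinase genes *Mmp3*, *Mmp9*, *Mmp10* and *Mmp13*, textbook ETS targets, were called in neither treatment, with changes of -0.05 to 0.21. They are named here after their values were seen. *Plau* and these 4 genes lay under the array medians on every array, between 5.10 (*Mmp13*) and 5.92 (*Mmp3*), and their detection was not assessed.

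**Figure D5:**
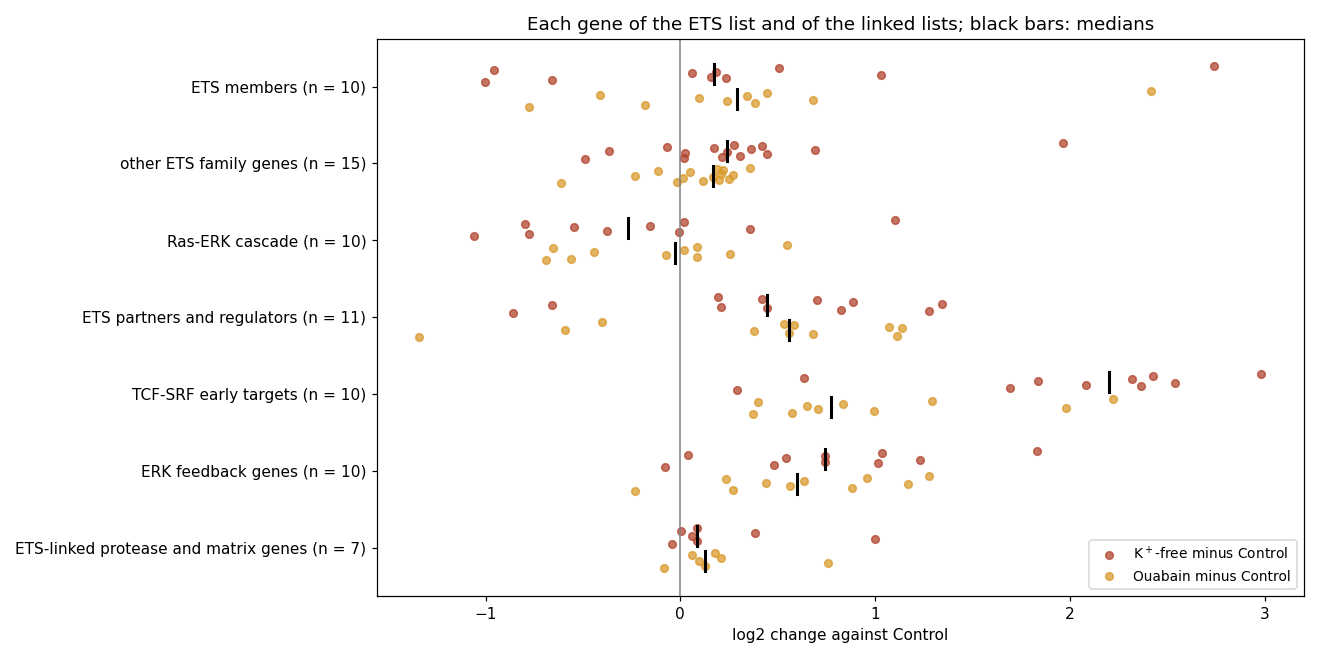
Log2 change against control (x axis) of each gene of the ETS list and of 6 linked lists (y axis), for K+-free medium and ouabain. Points are genes, and black bars are medians. Early target medians were 2.20 in K+-free medium and 0.77 with ouabain, and those of the ETS genes 0.17 in K+-free medium and 0.29 with ouabain. On *B2m* centring 9 of the 10 early targets were called in K+-free medium and 8 with ouabain.

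The 5 genes whose profile over the 9 arrays was nearest to that of *Ets2*, by Euclidean distance after centring each gene on its own mean, were *Il6r*, *Trib1*, *Mmp28*, *Bhlhe41* and *Nppc*. Distances were 0.44, 0.49, 0.49, 0.52 and 0.54 log2 units, and Pearson correlations with *Ets2* lay between 0.991 and 0.998 over arrays that fall into 3 conditions. *Il6r*, the interleukin-6 receptor gene, averaged 10.13 ± 0.03 in K+-free medium, 9.51 ± 0.06 with ouabain and 7.39 in control (SD, n = 3). *Trib1*, a pseudokinase gene, averaged 11.49 in K+-free medium, 10.83 with ouabain and 8.67 in control. *Bhlhe41*, a circadian repressor gene, averaged 11.25 in K+-free medium, 11.00 with ouabain and 8.36 in control. *Nppc*, the gene of C-type natriuretic peptide, averaged 9.51 in K+-free medium, 9.38 with ouabain and 6.62 in control. Their order of conditions was set by how they were picked.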

How the data were processed

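Affymetrix Rat Gene 1.0 ST arrays held total RNA of 9 RASMC samples, 3 per condition, with conditions taken from the labels. The deposited values are log2 signals from RMA, and the labels also list Partek, with versions not given in the sources used here. RMA includes a quantile normalization of the arrays, so a shift shared by most transcripts may not show. The deposited probe set signals did not share exactly 1 distribution, since repeating quantile normalization on them moved some changes. *Erf* in K+-free medium, for example, went from 0.16 to 0.35. Of 27342 probe sets, 15097 had a single symbol, of which 15067 were matched to RefSeq by Entrez identifier, and 14324 symbols remained, each with its highest-mean probe set. Some list genes were not analysed here.

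limma 3.58.1 in R 4.3.3 fitted 1 mean per condition over all 9 arrays and all probe sets, with moderated variances (4.59 prior degrees of freedom) and Benjamini-Hochberg adjustment within each contrast. A call needed an adjusted p under 0.05 and a change above 1.2-fold. The fit was tested on simulated data. With 3 arrays against 3, exact permutation cannot give a p under 0.1 and was not used. The methods' mention of MAS5, GeneSpring and n per group differs from the labels, which were followed; probe-level and detection values were not used here.

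The ETS genes and the 11 other lists were chosen with earlier results of these data known. The genes named were all 10 ETS genes, up to 4 genes per list with the largest called changes from control, the genes needed for the marker checks, and the 5 nearest profiles to the ETS gene with the largest change. Genes outside the rule are named as such. The methods state that conditions ran in parallel, but the labels do not tie a number to an experiment, and deviations of same-numbered arrays were correlated in some pairs and not in others, so the numbers were not used as pairs. Alternatives were 4 other scalings, a filter on dim probe sets, probe sets with 1 symbol only, a replicate block, 6 arrays alone, other moderation or tests, other fold limits, and leaving out each array. Promoter sequences are from RefSeq (GRCr8), and figures were made in Python 3.11.15 with matplotlib 3.10.9.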

Additional observations from a re-analysis of the deposited data

How the results depend on the processing

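Over 630 recomputed changes of the 10 ETS genes, 597 kept their direction and their side of the threshold, 15 lost the call, 11 gained it and 7 changed sign. Direction could change only under the other scalings or with an array left out. The remaining alternatives left the log2 change as it was and could alter only its call. The 597 is therefore not a count of tests of direction. The changes of *Ets1*, *Ets2*, *Etv1*, *Etv4* and *Etv5* in K+-free medium and of *Ets2*, *Etv4* and *Elf1* with ouabain kept direction and call under every alternative run. Sign changes were limited to small differences: *Elk3* with ouabain was -0.059 on *B2m*, *Elk3* in K+-free medium -0.019 on reference genes and -0.10 on *B2m*, and *Erf* in K+-free medium -0.00046 on *B2m*. Between the treatments, *Elk3* ranged from -0.067 to 0.024 and *Elk4* from -0.037 to 0.042 when arrays were left out in turn. Centring on *B2m*, which itself was higher by 0.16 in K+-free medium and 0.15 with ouabain, lowered every change from control by that amount. It moved the median change of all probe sets to -0.10 in K+-free medium and -0.08 with ouabain, beside 0.06 and 0.07 as deposited.

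A fold limit of 1.5 left 3 ETS genes called with ouabain (2 higher, 1 lower) and 2 between the treatments (1 higher, 1 lower), and *Elf1* was then not called in K+-free medium. In K+-free medium the higher calls became 5 under repeated quantile normalization and 6 without a fold limit. With ouabain the higher calls became 3 on *B2m*, and the lower calls 1 under repeated quantile normalization. The methods' t-test after Benjamini-Hochberg called 3 genes between the treatments, of which 1 was higher; *Ets2* and *Etv5* were lost there (adjusted p = 0.124 and 0.064). Leaving out each array gave 6 calls in K+-free medium (3 higher, 3 lower), 7 to 8 with ouabain (5 to 6 higher, 2 lower) and 4 to 5 between the treatments (1 to 2 higher, 2 to 3 lower). The replicate block gave the same 6, 7 and 5 calls. Same-numbered arrays correlated at -0.046 to 0.309 in their deviations, others at -0.284 to 0.163. Of the 9 arrays, 4 correlated best with their own number in both other conditions. Of 1572 recomputed changes of other named genes 62 lost the call, and 156 of 2079 list counts moved. Averaging probe sets of 1 gene could not alter the ETS genes, which have 1 each. With 3 arrays per condition, calls on changes near 1.2-fold depended on the setting, and so did some calls on larger changes. Among the larger were *Etv5* between the treatments (-0.54), lost under the methods' t-test after Benjamini-Hochberg, and *Etv5* with ouabain (-0.41), lost under repeated quantile normalization.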
